A study of Mus musculus with 4 samples.

Results

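Isl1 regions that lie outside protein-coding genes, more than 100 kb and at most 300 kb from the nearest gene end, were described in genital tubercle chromatin. The regions were chosen by their peak calls and positions: a region had to hold overlapping peaks of both Isl1 replicates, and its centre, the midpoint of the longest overlap, had to fall at that distance in mm10. Of 6834 shared regions, 1018 met the rule (14.9%, Wilson 95% interval 14.1 to 15.8%). Their presence in both lists and their distance are therefore not findings. The tissue was the embryonic genital tubercle of wildtype CD1 mice at E14.5, the outgrowth that later forms the penis or clitoris. Chromatin immunoprecipitation and sequencing with a rabbit monoclonal antibody against ISL1 was done in 2 replicates, with 2 input DNA samples that had no peak list here. How many embryos, and of which sex, made up a sample is not stated in the labels. Whole tubercles mix mesenchyme, epithelium, vessels and nerves, so a region cannot be placed in a cell type. The replicate 1 list held 8860 peaks and the replicate 2 list 10162, and read depth is unknown.

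Isl1 is a LIM-homeodomain transcription factor: its homeodomain reads short sites with a TAAT core, and its LIM domains bind cofactors such as Ldb1 that can bridge distant DNA. Genes that pattern embryonic outgrowths are often flanked by long stretches without other genes, and regulatory elements within such stretches can act on a promoter over long distances. The nearest gene need not be the one regulated, and binding alone does not show that a region acts on any gene.

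Sequence could be read for the members that reach a RefSeq promoter window (GRCm38.p6, the assembly of mm10; 250 bases before to 50 after an annotated start). There were 6, all at starts of long non-coding RNA (lncRNA) genes, and 4 are shown because they let the bound DNA itself be seen. Capitals mark the stretch that the Isl1 region covers, and bases are counted from 1 at the 5′ end of the window, on the strand of the lncRNA. The windows are 9430093N23Rik at chr2:169234588-169234887 (+), Gm32028 at chr19:56177485-56177784 (+), Gm34562 at chr15:51652602-51652901 (-) and Gm36335 at chr10:54365174-54365473 (-).
9430093N23Rik: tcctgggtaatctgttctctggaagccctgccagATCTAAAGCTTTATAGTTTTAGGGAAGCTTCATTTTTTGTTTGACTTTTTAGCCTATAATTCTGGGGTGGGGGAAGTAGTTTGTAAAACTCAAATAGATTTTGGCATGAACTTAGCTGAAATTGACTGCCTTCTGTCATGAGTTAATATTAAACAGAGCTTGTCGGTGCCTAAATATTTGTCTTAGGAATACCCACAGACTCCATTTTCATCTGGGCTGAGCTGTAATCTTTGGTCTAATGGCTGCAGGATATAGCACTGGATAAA
Gm32028: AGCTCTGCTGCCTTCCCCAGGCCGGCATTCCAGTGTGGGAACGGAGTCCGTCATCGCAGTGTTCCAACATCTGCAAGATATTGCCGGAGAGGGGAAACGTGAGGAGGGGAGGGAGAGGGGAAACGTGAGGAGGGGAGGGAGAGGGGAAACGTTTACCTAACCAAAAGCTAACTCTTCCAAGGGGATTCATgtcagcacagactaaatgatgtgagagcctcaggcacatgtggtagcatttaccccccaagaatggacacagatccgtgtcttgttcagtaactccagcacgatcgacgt
Gm34562: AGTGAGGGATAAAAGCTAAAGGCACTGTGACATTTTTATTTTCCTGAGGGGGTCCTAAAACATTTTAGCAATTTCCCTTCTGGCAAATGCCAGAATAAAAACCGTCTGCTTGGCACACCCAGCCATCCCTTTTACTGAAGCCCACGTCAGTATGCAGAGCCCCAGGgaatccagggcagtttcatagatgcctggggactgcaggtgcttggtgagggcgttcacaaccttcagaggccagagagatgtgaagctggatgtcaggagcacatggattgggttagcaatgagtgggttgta
Gm36335: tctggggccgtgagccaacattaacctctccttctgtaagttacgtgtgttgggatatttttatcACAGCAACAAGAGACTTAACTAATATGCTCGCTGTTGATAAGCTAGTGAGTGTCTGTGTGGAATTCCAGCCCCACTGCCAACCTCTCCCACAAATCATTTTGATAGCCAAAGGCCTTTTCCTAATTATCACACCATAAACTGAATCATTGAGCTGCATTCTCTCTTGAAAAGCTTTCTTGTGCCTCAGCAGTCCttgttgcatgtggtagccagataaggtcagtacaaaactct

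The region at 9430093N23Rik, 279 kb from Zfp64, was the strongest of these, with peak scores of 365 in replicate 1 and 337 in replicate 2. It covered 266 of the 300 bases, and its centre lay 40 bp before the start. Its covered stretch holds CTAATG at bases 270 to 275, a homeodomain-type word found on either strand in 7.36% of all 32851 promoter windows of the same length. It also holds the Meis-type word TGACAG (read on the other strand at bases 167 to 172; 19.2% of windows) and the E-box CAGATG (on the other strand at bases 243 to 248; 17.2%), a form of CANNTG. At Gm36335, 289 kb from the mannosidase gene Man1a (scores 95 and 60), the stretch holds the homeodomain core TAATTA at bases 187 to 192, present in 5.29% of windows, and an AP-1 word TGANTCA at bases 206 to 212 (7.81%). The stretch at Gm32028, 110 kb from Habp2 (scores 309 and 185), holds the Tead-type word GGAATG (14.7%) and the E-box CAGATG, both on the other strand. The stretch at Gm34562 (scores 138 and 137), between Trps1 and Eif3h, holds CANNTG, found in 72.3% of windows, and an NFI-type word TTGGCA (14.1%).

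The other members at lncRNA starts were at Gm47708 near Nudt4 (scores 138 and 158) and Gm11823 near Runx1t1 (scores 217 and 316, with 37 bases in the window). Both TAATTA and CTAATG were found in 1 of the 6 windows each, and a TTTATNG word, the form read by posterior Hox proteins, in 4 of 6 against 10.9% of all windows. That word stood out most of the 30 words searched, and 1 of its 4 matches, at Gm11823, lay outside the stretch the region covers. The windows were few and picked by position, so these are matches of letters and not sites of binding. GC content was 37.3 to 54.0%, against a median of 52.7% over all windows. The shares of all windows were not matched for GC, which limits the comparison for words rich in A and T, such as TTTATNG. The sequence of the remaining members was not used here.

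The density of members by distance gave the clearest pattern (described, not tested). Over the 354 Mb of DNA at this distance outside chromosome Y, there were 2.88 members per Mb, against 2.03 shared regions per Mb of intergenic DNA 1 to 100 kb from a gene, 2.55 per Mb inside genes and 1.94 per Mb beyond 300 kb. The densest place was within 1 kb of a gene end, with 11.9 per Mb. In finer steps, intergenic density was 1.67 per Mb (Poisson 95% interval 1.55 to 1.80) at 1 to 25 kb and 2.59 (2.37 to 2.82) at 50 to 100 kb. It was 2.98 (2.69 to 3.30) at 100 to 150 kb, 2.98 (2.64 to 3.35) at 150 to 200 kb, 2.59 (2.23 to 2.98) at 200 to 250 kb and 2.85 (2.44 to 3.31) at 250 to 300 kb. Beyond this, it was 2.73 at 300 to 500 kb and 0.892 (0.690 to 1.14) past 1 Mb.

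Each replicate's whole list had the same shape. Replicate 1 had 2.88 peaks per Mb at 25 to 50 kb, 3.88 at 100 to 150 kb and 1.19 past 1 Mb, and replicate 2 had 3.49, 4.62 and 1.30. Intervals cover counting error only, and regions lie in groups, so they are too narrow. The DNA was counted between the outermost genes of each chromosome, and without the 5 members beyond them the density was 2.86 per Mb. Assembly gaps were not removed from the DNA counted, and how well reads map there was not measured.

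**Figure D1:**
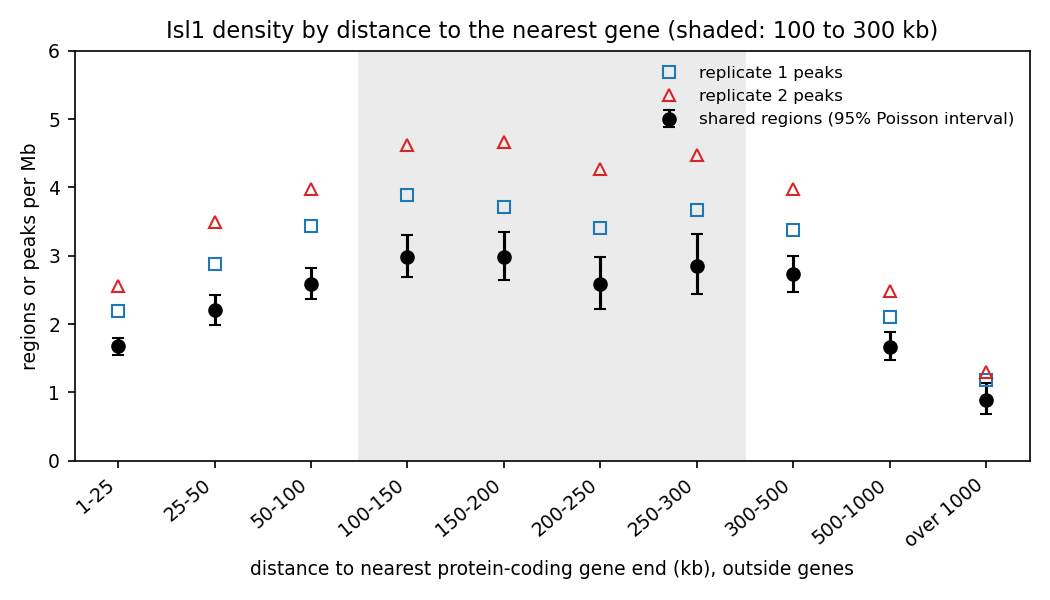
Isl1 shared regions and peaks of each replicate per Mb of intergenic DNA (vertical axis) in steps of distance from the nearest protein-coding gene end in kb (horizontal axis), chromosome Y left out; bars on the black points are Poisson 95% intervals. The shaded steps hold the 1018 members; the shared regions reach 2.98 per Mb at 100 to 200 kb and 0.892 per Mb past 1 Mb.

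Density also differed with the width of the gene-free gap around a member, without a steady trend, and was lowest in the widest gaps. It was 2.99 per Mb in gaps of 200 to 400 kb (178 members), 3.48 in gaps of 400 to 600 kb (265 members) and 2.89 in gaps of 600 to 1000 kb (305 members). It was 2.63 in gaps of 1000 to 2000 kb (208 members) and 1.72 in wider ones (57 members). Chromosomes differed: chromosome 18 had 5.04 members per Mb, chromosome 13 had 4.07 and chromosome 10 had 3.92, whereas chromosomes 6 and 7 had 1.84 and 1.82. Chromosome X had 13 members (0.412 per Mb), and its other shared regions were sparse as well (0.676 per Mb). Chromosome Y, with 32.6 Mb at this distance, had none.

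The authors' peak score, a whole number per peak whose formula is not given in the sources used here, described the strength of the members. In replicate 1 it ranged from 21 to 1091 with a median of 93 (quartiles 61 and 152), and in replicate 2 from 22 to 1445 with a median of 118 (77 and 185). Medians 1 to 100 kb from a gene were 95 and 118, and beyond 300 kb they were 93 and 117. The 692 shared regions whose lower score was at least 316 made up 10.1% of all shared regions. Few members were strong by that cut: 50 (4.91%) were among them. The share was 6.12% at 1 to 100 kb, 3.61% beyond 300 kb, 7.82% inside genes and 34.2% at gene ends. Within the members, score bore no rank relation to distance (Spearman 0.003 in replicate 1 and 0.012 in replicate 2, across regions, which share libraries). The median joined width was 261 bp, against 254 bp at 1 to 100 kb and 269 bp beyond 300 kb.

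Scores of the replicates moved together across members (Spearman 0.662, a description over 1018 regions of the same 2 libraries). The corresponding value was 0.657 at 1 to 100 kb and 0.882 at gene ends. Replicate 2 gave the higher score at 651 members (63.9%), against 58.9% of all shared regions. The share was 61.7% at 1 to 100 kb and 66.0% beyond 300 kb. Scores lay within 2-fold of each other at 820 members (80.6%), against 80.5% of all shared regions. They were more than 3-fold apart at 49 members, with no like count over all shared regions given here. Scores fall on repeated values, and 56 members (5.50%) share the commonest replicate 1 score of 93, which is also the median. Of all replicate 1 peaks, 3.97% have that score. Just inside the limits lay a region near Megf9 (100.2 kb, scores 81 and 49) and a region near Dleu7 (299.9 kb, scores 42 and 78). Just outside lay regions near Stt3b (99.98 kb, scores 46 and 83) and Rasgef1b (300.02 kb, scores 156 and 98).

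**Figure D2:**
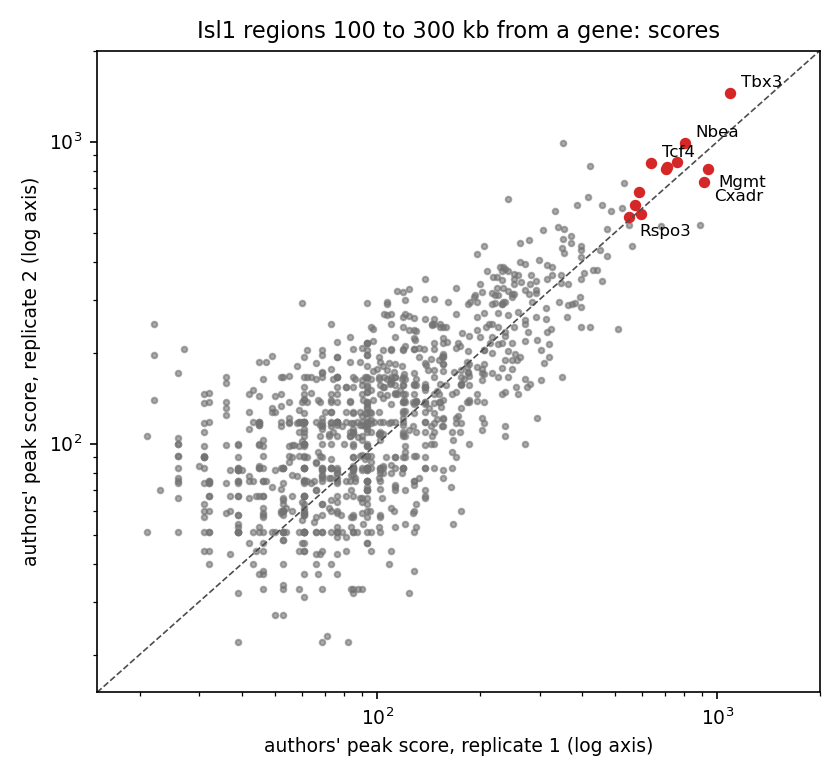
Authors' peak score in replicate 1 (horizontal, log axis) and replicate 2 (vertical, log axis) for the 1018 members, 1 point each; red marks the 12 with the highest lower score, 6 of them named by nearest gene, and the dashed line marks equal scores. Most points lie above the line (651 of 1018, 63.9%, against 58.9% of all shared regions). The region near Tbx3 stands highest in both replicates, at 1091 and 1445.

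How often a peak at this distance was found again in the other replicate depended on its score. In replicate 1, 1038 of 1309 peaks at this distance (79.3%, Wilson interval 77.0 to 81.4%) overlapped a replicate 2 peak, against 78.5% over all locations. In replicate 2 it was 1036 of 1604 (64.6%, 62.2 to 66.9%), against 68.3% over all locations. In the lowest score quartile of the list the share was 59.4% in replicate 1 and 39.2% in replicate 2, against 57.4% and 41.3% over all other locations. In the highest quartile all 231 peaks of replicate 1 and 293 of 296 of replicate 2 were found again. Over all other locations the highest quartile was much alike, at 98.4% and 98.9%. Peaks in the third quartile of replicate 1 were found again more often at this distance (93.6%, 90.5 to 95.7%) than over all other locations (85.9%, 84.2 to 87.4%). Beyond 300 kb the share was alike (94.0%, 90.3 to 96.3%), and at 1 to 100 kb it was 88.0% (85.1 to 90.5%). In replicate 2 the shares at this distance and over all other locations were both 79.6%. Peaks found in 1 list alone had median scores of 53 (271 peaks, replicate 1) and 67 (568 peaks, replicate 2).

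**Figure D3:**
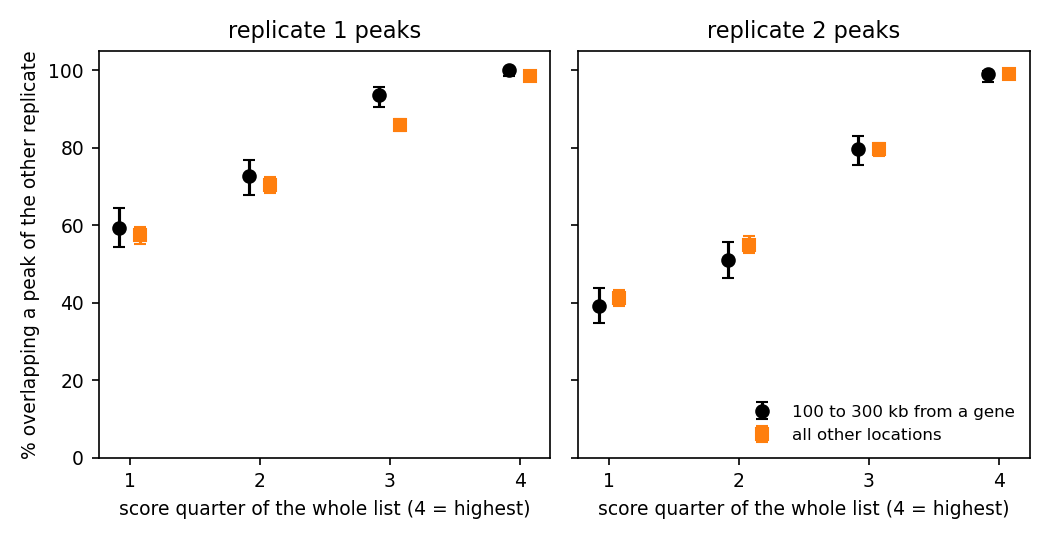
Percentage of peaks overlapping a peak of the other replicate (vertical axis) by score quartile of the whole list (horizontal axis), for peaks 100 to 300 kb from a gene (black) and all other locations (orange); bars are Wilson 95% intervals. The share rises from 59.4% to 100% in replicate 1 and from 39.2% to 99.0% in replicate 2 at this distance.

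The strongest member lay 152 kb from Tbx3, a T-box repressor gene of limb and genital outgrowth, on chromosome 5 (119518664 to 119519109). Its scores were 1091 and 1445, and it ranked 20 of all 6834 shared regions by the lower score. It crosses an end of the lncRNA gene Gm31314 (119518795 to 119527957). The next, 201 kb from Mgmt, a DNA repair gene (chromosome 7, 136692978 to 136693378), scored 938 and 814 and lay inside the lncRNA gene Gm6249. A region 119 kb from the neuronal gene Nbea scored 801 and 990, and a region 134 kb from Astn2 scored 763 and 854. A region 166 kb from Cxadr, an adhesion receptor gene, scored 911 and 733.

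The remaining regions of the 12 strongest had scores of at least 548 in both replicates. They lay near Haao (711 and 822), Fsip2 (708 and 812), Tcf4 (640 and 849; an E-protein partner of Twist-class factors) and Fzd1, a Wnt receptor gene (587 and 683). The others lay near Gja1, the gene of connexin 43 (597 and 575), Ofcc1 (572 and 619, with Tfap2a on the other side of it) and Rspo3, a secreted Wnt enhancer (548 and 564). Of the nearest genes, Tbx3 and Tcf4 are developmental transcription factors and Fzd1 and Rspo3 Wnt genes. The next shared region lay between 1484 bp (Tbx3) and 219424 bp (Rspo3) from these 12.

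Members lay in 499 gene-free gaps and had 599 nearest genes, of which 370 had 1 member. A further 120 genes had 2, and 40 genes had 4 or more, together 201 members. The gap between Med13l, a Mediator subunit gene, and Tbx3 held the most, 13 members in 905 kb and 23 shared regions at any distance. Tbx3 was nearest to 7, where the DNA nearest to it at this distance gave 0.576 at the members' mean density, and all 7 lay in that gap. They scored 61 and 51, 62 and 204, 93 and 82, 374 and 291, 1091 and 1445, 93 and 70, and 121 and 98 in replicates 1 and 2, in chromosome order. Thus 2 of the 7 were strong in both replicates and the others were near or below the members' medians, save for 204 and 121 in single replicates. No shared region lay inside Tbx3, and no intergenic one at 1 to 100 kb had it as nearest gene. Regions outside the gene but within 1 kb of its ends were not part of these counts. Med13l was nearest to the other 6 of the gap, which scored up to 254 and 198.

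The next gaps held 9 or 10 members. Those with 9 ran from Olfr1505 to Tle4, Gm46240 to Dcn, Atp5g3 to Lnpk, Csnk1g3 to Zfp608 and Dph6 to BC052040. The gap from Exoc2, an exocyst gene, to the forkhead gene Foxq1 held 10 members, 8 of them in a chain of 176 kb on chromosome 13, with replicate 1 scores of 45 to 243 and replicate 2 scores of 53 to 450. The forkhead genes Foxf2 and Foxc1 also lie within 500 kb of members there. Dcn, which encodes the matrix proteoglycan decorin, was nearest to 6 members with scores of 55 to 206 and 40 to 233. Dcn had no shared region inside it and was nearest to no intergenic one at 1 to 100 kb. Its chain of 6 members, which includes a member nearest to Gm46240, spanned 127 kb. Outside these gaps, Gas1, a hedgehog co-receptor gene, was nearest to 7 members on both sides of it (replicate 1 scores 31 to 186, replicate 2 scores 63 to 139), none strong in both lists. Gas1 had no shared region inside it, and it was nearest to no intergenic one at 1 to 100 kb or beyond 300 kb. For Dcn and Gas1 too, regions outside the gene but within 1 kb of its ends were not counted.

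The HoxD cluster, whose 5′ genes pattern digits and genitalia, was flanked by 2 such gaps. The gap from Atp5g3 to Lnpk held 9 members with scores up to 232 and 328, and the gap beyond Mtx2 held 7, of which the strongest scored 488 and 591 (chromosome 2, 75011891 to 75012259). Hoxd13 is nearest to none of them, since Lnpk and Mtx2 stand between. In the gap from Isl1 to Parp8 lay 6 members, 2 of them nearest to Isl1, with scores of 235 and 327 for the region 167 kb away and 45 and 115 for the region 212 kb away. The strongest of the Parp8 members scored 242 and 321. A developmental transcription factor gene lay within 500 kb of 201 members (19.7%, 17.4 to 22.3%), against 12.6% of the DNA at this distance. For 83 of them another gene was nearest.

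Other genes with most members were Cxadr (7, with replicate 1 scores of 55 to 911), the Groucho corepressor gene Tle4 (7, with scores of 61 to 316 and 106 to 463), BC052040 (7, in a gap with Meis2 within 500 kb), Pcdh18 (6), Epha4 (6), Runx1t1 (6), Csnk1g3 (6), Atp5g3 (6), Zfp521 (5) and Tmem72 (5, in a gap that ends at the chemokine gene Cxcl12). Each had between 0.363 and 1.15 expected from its DNA at the mean density. These genes were picked for their counts, so the excess is a description.

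**Figure D4:**
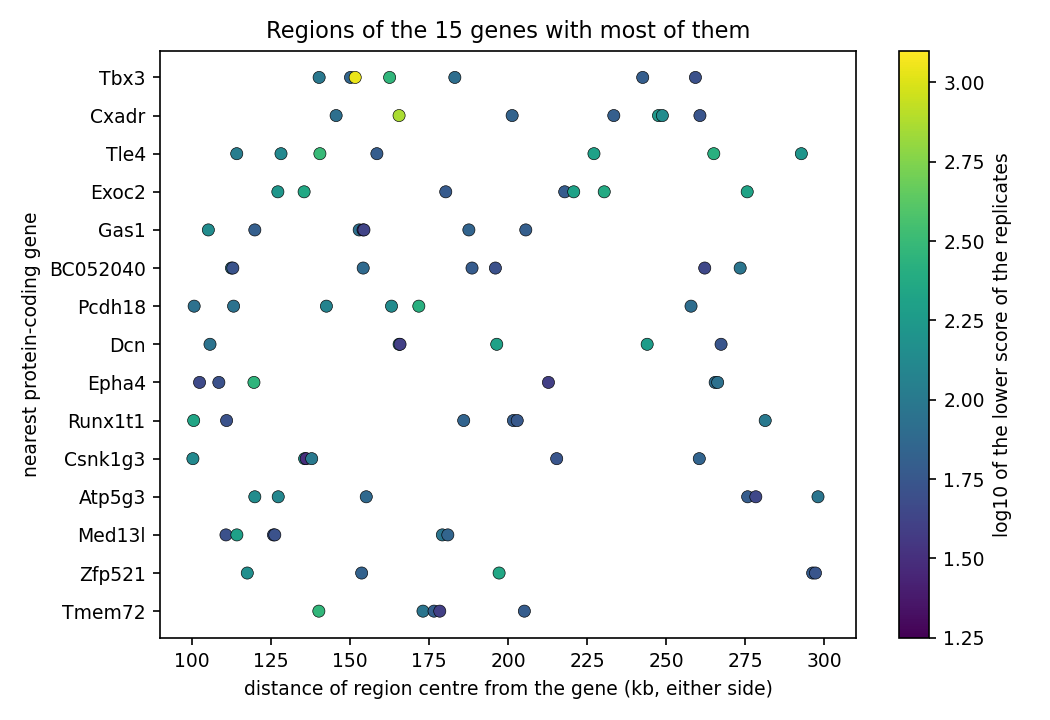
Distance of each member from its nearest protein-coding gene in kb (horizontal axis) for the 15 genes with most members (vertical axis), with colour for the log10 of the lower score of the replicates. Members spread over the whole range of distance, and the brightest point is the Tbx3 region with a lower score of 1091.

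Nearest genes were then counted over 19 gene lists and set beside the share of DNA at this distance that has the same nearest genes (described, not tested; intervals are Wilson and take regions as independent, which grouped regions are not). Genes on a list were nearest to 252 members (24.8%, 22.2 to 27.5%) and to 15.5% of the DNA. Developmental transcription factors were nearest to 118 members (11.6%, 9.77 to 13.7%) against 7.10% of the DNA, a ratio of 1.63, and 57 of the 145 list genes with such DNA had a member. The ratio was 1.58 for all replicate 1 peaks and 1.56 for all replicate 2 peaks. It was 2.05 for shared regions 1 to 100 kb away and 1.64 beyond 300 kb, so it was not higher at the members' distance. Without the Med13l to Tbx3 gap the share was 11.0%. Beside Tbx3, the leading genes were Runx1t1 (6), Zfp521 (5) and Osr1, a zinc finger gene of limb and urogenital mesenchyme (5, with the strongest at 238 and 189). Their scores were like those of other members, with medians of 93 and 117.5.

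Transcription factors known in the tubercle, a list that partly overlaps the one above, were nearest to 28 members (2.75%, 1.91 to 3.95%) against 0.926% of the DNA, a ratio of 2.97. The ratio was 5.25 at 1 to 100 kb. These members lay at 10 genes, among them Tbx3, Osr1 and Sall1 (5, scores up to 128 and 166; a spalt zinc finger gene of limb and genital growth). Tbx3 alone gave 7 of the 28.

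Among ligands, receptors and feedback genes, Wnt genes were nearest to 13 members (1.28%, 0.748 to 2.17%) against 0.412% of the DNA. The secreted antagonist Dkk1 had 3 (26 and 51, 36 and 131, and 133 and 207). Fzd1 had 2 (587 and 683, and 69 and 22, the members' lowest replicate 2 score). Wnt5a, a ligand of outgrowing appendages, had 2 (138 and 109, and 475 and 418), both in the lncRNA gene Gm35164. The antagonist Dkk2 had 2 (121 and 90, and 325 and 239). Beyond 300 kb no shared region had a Wnt gene nearest, where such genes were nearest to 0.0968% of the DNA. Bmp, Tgf-beta and activin genes were nearest to 15 (1.47%, 0.895 to 2.42%) against 0.819%. The ligand gene Bmp4 had 4, scoring 37 and 82, 234 and 294, 119 and 118, and 156 and 82, so that 1 was well above the medians in both lists. Bambi, a decoy receptor, had 3 weak ones (up to 93 and 79), Gdf10 had 2 (196 and 180, and 184 and 186) and Inhba had 1.

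Fgf genes were nearest to 11 members (1.08%, 0.604 to 1.92%) against 0.548%, with 3 at Spred2 and 2 at Spry2, both feedback inhibitors, and 2 weak ones at Fgf10 (32 and 67, and 59 and 33). Fgf14 had 1 strong member (298 and 406). It lay beyond the last gene of its chromosome, where DNA was not counted. This member is thus among the 11 without DNA in the 0.548%. Hedgehog genes were nearest to 8 (0.786%, 0.399 to 1.54%) against 0.238%, but 7 were those of Gas1 and 1 was at the antagonist Hhip. Notch genes were nearest to 4 (3 at the ligand gene Jag1, with 253 and 337 for the strongest, and 1 at Hes1) and retinoic acid genes to 4 (Nr2f1 2, Nr2f2 and the degrading enzyme Cyp26b1 1 each). For these lists the interval of the member share (0.153 to 1.01%) included the DNA shares of 0.172% and 0.191%. Guidance genes were nearest to 30 (2.95%, 2.07 to 4.18%) against 1.56%, with 6 at Epha4, 5 at Efna5, 4 at Epha3 (685 and 526 for the strongest) and 2 at Sema6a. Ratios at 1 to 100 kb were 1.79 for Bmp, Tgf-beta and activin genes (1.80 here) and 1.90 for Fgf genes (1.97 here). They were 2.53 for hedgehog genes (3.30 here) and 1.76 for guidance genes (1.89 here). For Notch and retinoic acid genes they were 0.399 and 1.19 (2.29 and 2.06 here), from 1 and 3 regions.

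Mesenchyme and matrix genes were nearest to 19 members (1.87%, 1.20 to 2.90%) against 0.930%, a ratio of 2.01, compared with 4.63 at 1 to 100 kb. Dcn (6), Cdh11 (5, a mesenchymal cadherin, with scores up to 96 and 165), Cdh2 (2) and Adamts20 (2) led. Cadherin and other adhesion genes, typical neighbours of gene deserts, had 36 members (3.54%) against 3.53% of the DNA, a ratio of 1.00. Pcdh18, Cdh11, Flrt2 (561 and 450 for its strongest) and Cdh8 led that list.

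Genes of other cell types were nearest to few members and to little of the DNA. Epithelial and urethral plate genes had 1 member (Trp63, 119 and 83; 0.0982% against 0.146% of the DNA) and skeletal muscle genes 1 (Pax3, 128 and 135; ratio 1.79). Endothelial genes had 3 (Emcn 2 and Cdh5 1, the latter at 473 and 515 in a gap that begins at Cdh11), which was 0.295% of members (0.100 to 0.863%) against 0.107% of the DNA, a ratio of 2.76. Blood and immune genes had 2 (both at Ptprc; ratio 1.32), neural genes 3 (all at Nefm; 1.08) and cartilage and bone genes 4 (Sox9 2, Sox5 and Sox6 1 each; 1.12). Hepatocyte genes and steroid genes had 0 of 1018, which allows a share of up to 0.295% (3 counts of the total; the Wilson upper limit is 0.376%). Their DNA shares were 0.113% and 0.152%, so such counts say little.

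**Figure D5:**
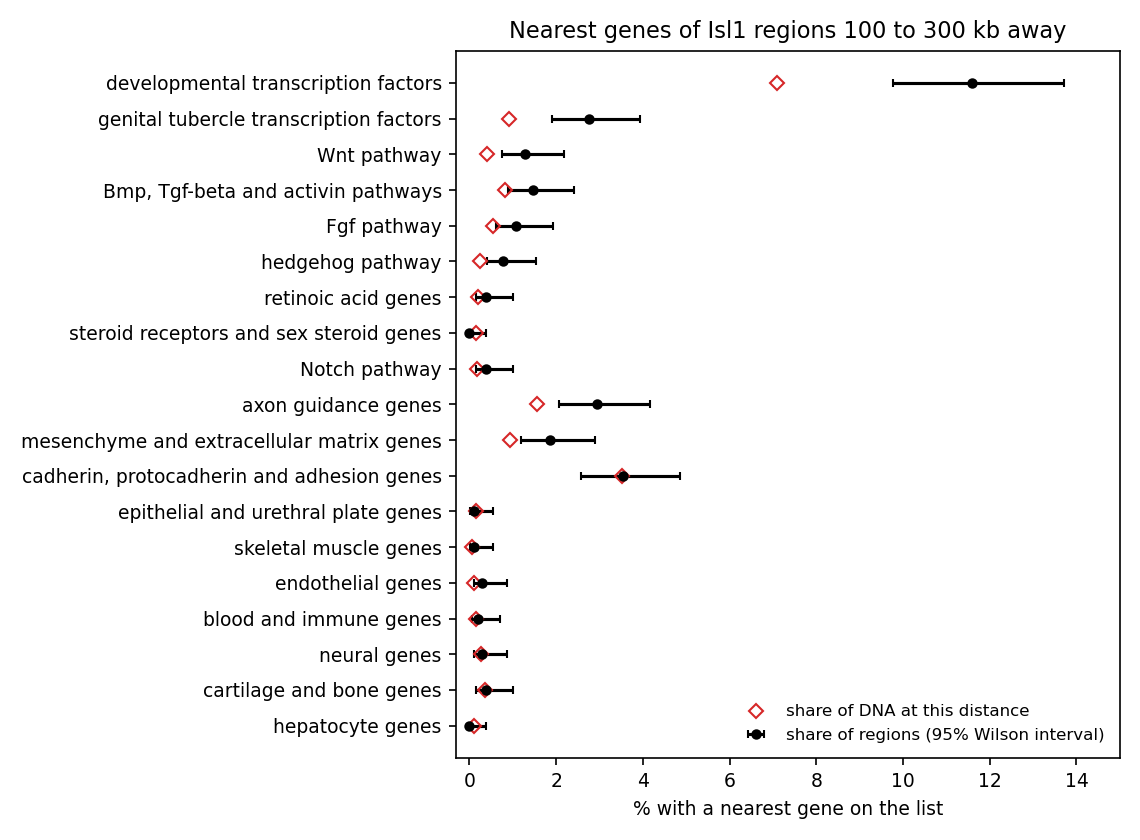
Share of the 1018 members (black, Wilson 95% interval) and of the DNA 100 to 300 kb from a gene (red) whose nearest protein-coding gene is on each of 19 lists (horizontal axis in percent). Developmental transcription factors lie at 11.6% against 7.10%, and adhesion genes at 3.54% against 3.53%.

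Non-coding genes and close neighbours described the members further. The centre of 195 members (19.2%, 16.9 to 21.7%) lay inside a non-coding gene or pseudogene, nearly all of them lncRNA genes (189 members), against 14.0% of the DNA at this distance. With 10 kb on either side the shares were 32.8% (30.0 to 35.8%) and 27.4%. Members inside such genes scored like the others, with medians of 93 and 118 in both sets. Gm31431 near Cxadr and 2610307P16Rik near Sox4 held 4 each. The X-linked lncRNA gene Firre, which encodes a nuclear RNA that shapes chromatin contacts, held 3 of the 13 members on its chromosome.

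Another shared region lay within 50 kb of 542 members (53.2%), against 47.9% of all shared regions. The share was 50.3% at 1 to 100 kb, 46.3% beyond 300 kb and 49.7% inside genes. The median distance to the next shared region was 41.9 kb, against 55.8 kb over all, 49.2 kb at 1 to 100 kb and 62.5 kb beyond 300 kb. Joined at gaps of up to 50 kb, 491 members (48.2%) formed 194 chains, of which 66 had 3 or more. No like figure for chains of other regions is given here. The 5 chosen by size, with ties broken by summed lower score, were that from Exoc2 to Foxq1 (8), those of Cxadr (7 in 116 kb) and Dcn (6), and those of Tbx3 (5 in 43.2 kb) and Tmem72 (5 in 65.3 kb). A further 4 chains also had 5 members.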

How the data were processed

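The data were 1 peak list for each of the 2 Isl1 samples, which nothing says came from separate pools of embryos, grouped and numbered by their titles. The submitters' processing notes list Trimmomatic 0.35, Bowtie2 2.2.6, MACS2 2.1.0.20150731, bedtools and build mm10, but no order, settings or threshold. For each peak the authors deposited its position and a score, a whole number of unstated formula. They give no read counts, so depth is unknown. The input samples were not analysed here.

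Overlapping peaks (1 bp or more) were joined. Distances and nearest genes used 21900 protein-coding genes of a RefSeq table (GRCm38.p6). The DNA at each distance was counted on a 1 kb grid between the first and last gene of a chromosome. Shares carry Wilson and densities Poisson 95% intervals, for counting error only. No test was made over regions, which are not replicates. Of the list genes, 766 matched the table and 2 (Lphn2 and Lphn3) did not. Genes named are the 12 strongest members' nearest genes, the 15 genes with most members, up to 4 per list and the 5 largest chains; other names (Parp8, Lnpk, Mtx2, Megf9, Dleu7, Stt3b, Rasgef1b, Gm31431, 2610307P16Rik, Firre, other flanking genes and the lncRNA starts) were chosen after their values were seen. One gene that this rule names is not reported here. The members, lists and rules were chosen with earlier results of these data known. Which side of its nearest gene a member lay on could not be judged: strand was given for the genes of 740 of 1018 members, under the share needed, so that check is void. Planned motif counts over all members needed a genome sequence, which was not used. Region finding was tested on simulated data. Python 3.11.15, pandas 2.3.3 and scipy 1.17.1 were used.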

Additional observations from a re-analysis of the deposited data

How the results depend on the processing

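Of 112 values under alternatives, 79 stayed within their limits and 33 moved. The share nearest to developmental transcription factors stayed between 10.3% and 13.7% under each alternative that kept protein-coding genes as the reference. The settings that dropped the largest gap, added chromosome Y or kept autosomes alone were chosen after seeing the data. With chromosome Y the density was 2.64 per Mb and on autosomes 3.12 per Mb, and the list ratio was 1.78 and 1.58. The other alternatives changed which regions or peaks were counted or how they were joined. Shares and medians moved as well as counts, and the values that moved are given below.

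With 50% reciprocal overlap, 67.6% of replicate 1 and 55.2% of replicate 2 peaks were shared, and 48.9% of members had a neighbour within 50 kb. With both scores at least 50, the replicate 2 median score was 137, its shared peaks 58.7%, the median width 276.5 bp and members with a neighbour 47.7%. From 150 to 300 kb there were 637 members (9.32% of shared regions) in 128 chains, and from 100 to 200 kb 660 (9.66%) in 121 chains, the largest of 5. With genes of every type as the reference, 363 regions remained at this distance (5.31%), with 258 nearest genes and 62 chains, the largest of 5. In that setting 68.1% of replicate 2 peaks were shared and 47.7% of regions had a neighbour. A developmental transcription factor was nearest to 1.65%. Non-coding genes could then be nearest and the set of regions changed as well, and these were not told apart. With a chain gap of 20 kb the largest chain had 4 members.

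In the single lists (without replicate 2 or without replicate 1), there were 1309 to 1604 members (14.8 to 15.8% of peaks), with median widths of 177 to 191 bp, 59.7 to 64.7% with a neighbour and 275 to 344 chains; the median score was 84 in replicate 1 and 90 in replicate 2. Sharing and the correlation between replicates have no value with a single list, and the share at non-coding genes has none where such genes define the distance. No paired analysis was possible because peaks were listed for Isl1 alone, and so no input value stood beside either replicate number. Motif shares in windows of 200 or 400 bp at each centre were not run. Unknown depth limits what a missing weak peak shows.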
